A study of Mus musculus with 11 samples.

Results

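The contacts described here lie inside the regulatory domain of En1, between bins of chr1:122510001-123080000 (mm9), in 4 capture Hi-C maps of mouse embryos at embryonic day 9.5. The stretch is 570 kb long and holds 57 bins of 10 kb. It was defined from these maps themselves: it is the domain interval chr1:122470001-123080000, whose edges are insulation boundaries of the wild-type forelimb map, without its first 4 bins, which hold En1 and the domain's edge. Of the 88410 bin pairs of a map, 1653 lie inside this interior, and the 1485 of them that are at least 30 kb apart carry the values below. Because the interval was chosen from the contact signal, a raised level inside it is a description and was not tested.

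Capture Hi-C cuts crosslinked chromatin (here with DpnII), religates it and enriches one region with baits, so that each read pair reports a contact between 2 loci. The maps are wild-type forelimb, wild-type forebrain and wild-type midhindbrain boundary, each merged from 3 libraries, and forelimb of a mutant with a stop cassette insertion, merged from 2. The strain field names the cross c57bl6.J X 129S6.sv for every library, yet wild-type forelimb libraries are titled with the tag CD1, and their library numbers are far from the others. Strain tag and library series therefore cannot be told apart from tissue or genotype wherever the wild-type forelimb map is compared. The labels used here give neither the cassette's position and zygosity nor how many embryos were pooled. With 1 merged map per group there is no replicate error. Every interval and SD covers counting error only, and every test compares the reads of 2 maps, not the conditions.

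En1 encodes a homeobox transcription factor that patterns the midhindbrain region and, from the ectoderm, the ventral side of the limb bud. The long non-coding RNA Maenli, named in the title of the series, is transcribed from the gene-poor stretch next to En1 and is known for its role in En1 expression in the limb. In the RefSeq order of genes on assembly GRCm38.p6, 9 lncRNA genes lie between En1 and the next protein-coding gene, Insig2, among them Gm29345 and Celrr. The coordinates of that assembly were not used. A contact domain is a stretch whose loci meet each other more often than they meet loci outside. Many domains form as cohesin extrudes a loop of chromatin until it is held at sites bound by CTCF, and such a domain shows a bright corner where its edges meet, stripes that run from an edge, and a drop of contact across its boundaries.

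The total number of contacts was 8823849 in the wild-type forelimb map, 9489482 for forebrain, 9523316 for midhindbrain boundary and 7662227 for stop-cassette forelimb. The interior pairs held 524338, 503098, 488922 and 379496 of these in the same order. The median interior pair had 294, 289, 269 and 207 contacts, no interior pair was empty in any map, and the thinnest had 24 contacts, in the stop-cassette map. The wild-type forelimb map stood apart in one technical measure. The median share of an interior bin's signal that fell within the bin itself was 8.79% there, against 11.9% for forebrain, 12.3% for midhindbrain boundary and 12.9% for stop-cassette forelimb. Its part in the comparisons was not tested.

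Levels are given as observed over distance mean, the balanced (Knight-Ruiz, KR) signal of a bin pair divided by the mean KR signal of all pairs of that map at the same distance. A level of 1 is the average of the 4200 kb region at that distance. The interior mean was 1.32 (counting SD 0.0023) for wild-type forelimb, 1.35 (0.0024) for forebrain, 1.27 (0.0023) for midhindbrain boundary and 1.26 (0.0026) for stop-cassette forelimb. In bulk tissue, more cells that hold a contact and more frequent contact per cell cannot be told apart. The other 5 domain-like intervals of the region had means from 0.957 to 1.30 for wild-type forelimb, and the interior mean lay near the top of or just above the corresponding range in every map. Single pairs spanned a wide range, from 0.330 to 9.15 for wild-type forelimb and from 0.386 to 11.7 for forebrain.

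The feature common to the 4 maps was a rise of the level with distance. Neighbouring loci of the interior met at the regional average, and loci at its opposite ends met several times more often than other loci that far apart. At 30 to 100 kb the mean level was 0.961 for wild-type forelimb, 0.952 for forebrain, 0.958 for midhindbrain boundary and 0.964 for stop-cassette forelimb, slightly under the average. From 210 to 300 kb it was 1.32, 1.31, 1.25 and 1.25 in the same order. From 410 to 500 kb it was 2.37, 2.53, 2.21 and 2.14. The pairs 510 to 560 kb apart reached 4.02, 5.17, 4.01 and 3.55, with forebrain highest and stop-cassette forelimb lowest.

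A line fitted to the KR signal over the longer distances of the interior rose, where that of the whole region fell. From 210 to 560 kb the slope of log10 mean signal on log10 distance was positive inside the interior, at 0.47 for wild-type forelimb, 0.77 for forebrain, 0.53 for midhindbrain boundary and 0.39 for stop-cassette forelimb. Over the whole region the same slope lay between -0.95 and -0.91. The fit gives each distance the same weight, and the farthest distances hold only a few pairs beside the corner. For wild-type forelimb the mean level was 1.23 at 210 kb (36 pairs), 1.96 at 400 kb (17 pairs) and 9.15 at 560 kb (1 pair). How far the positive slope rests on the last distances was not tested. No slope was fitted from 210 to 400 kb alone, so a rise of the signal over those distances was not shown. Among pairs 410 to 560 kb apart, 81.6% of the 136 interior pairs had a level of at least 2 for wild-type forelimb and 66.9% for stop-cassette forelimb. The 5808 pairs elsewhere at those distances passed that level in 1.69% to 2.43% of cases, depending on the map. Those are all pairs not wholly inside the interior, so they include pairs that cross a domain boundary. How many cross one was not counted, and pairs within 1 domain were not taken separately.

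**Figure D1:**
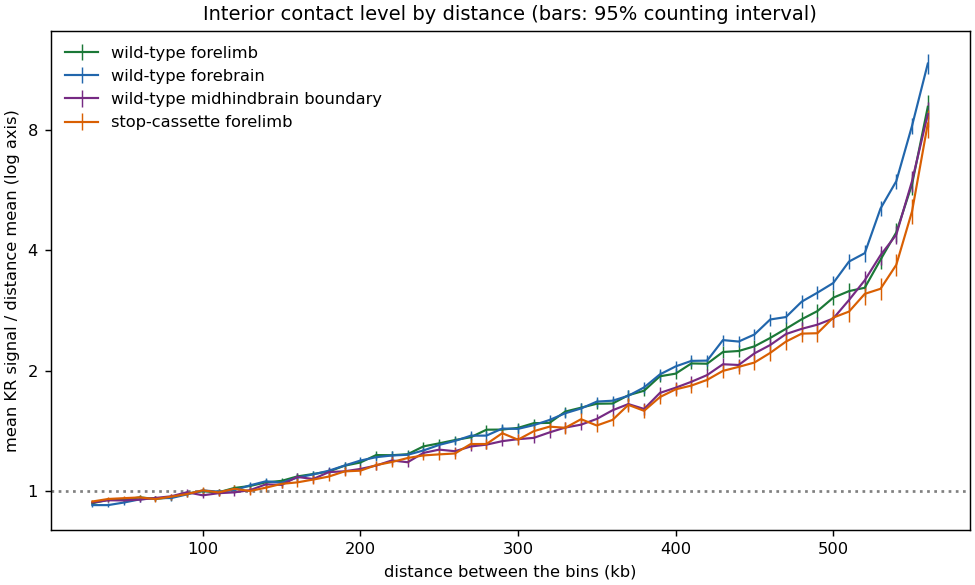
Mean observed over distance mean (log axis) of the interior pairs against the distance between the bins in kb, 1 line per merged map, with 95% counting intervals as bars and a dotted line at 1. All lines start near 1, cross it for the last time beyond 110 to 130 kb and rise to between 8.31 and 11.7 at 560 kb, with forebrain above the other 3 maps beyond 510 kb.

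The peak of the interior was its corner, the contact between its first bin, next to En1, and its last bin. This pair had 768 contacts for wild-type forelimb, 1171 for forebrain, 721 for midhindbrain boundary and 577 for stop-cassette forelimb. Its level was 9.15 (counting SD 0.33), 11.7 (0.34), 8.77 (0.33) and 8.31 (0.35), the highest of the 364 pairs of the region at that distance in every map. The top pair of the 36113 that span 30 kb to 1 Mb lay just outside the interior, where the left-out bin chr1:122490001-122500000 met the same last bin at 15.02 for wild-type forelimb, 21.2 for forebrain, 16.6 for midhindbrain boundary and 12.9 for stop-cassette forelimb. The interior corner is thus the inner flank of a contact that peaks between this left-out bin and the domain's last bin. The peak did not lie in the domain's first bin, chr1:122470001-122480000. For wild-type forelimb, the level with the last bin was 6.15 in that first bin and 11.3 in the last left-out bin. At the limits of the interior, the mean level with the interior bins was 1.81 in the last left-out bin and 1.82 in the first interior bin of wild-type forelimb. At the far limit it was 1.82 in the last interior bin and 1.56, 1.30 and 1.07 in the 3 bins after it. In the next bin it was 1.25, so the fall was not steady.

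**Figure D2:**
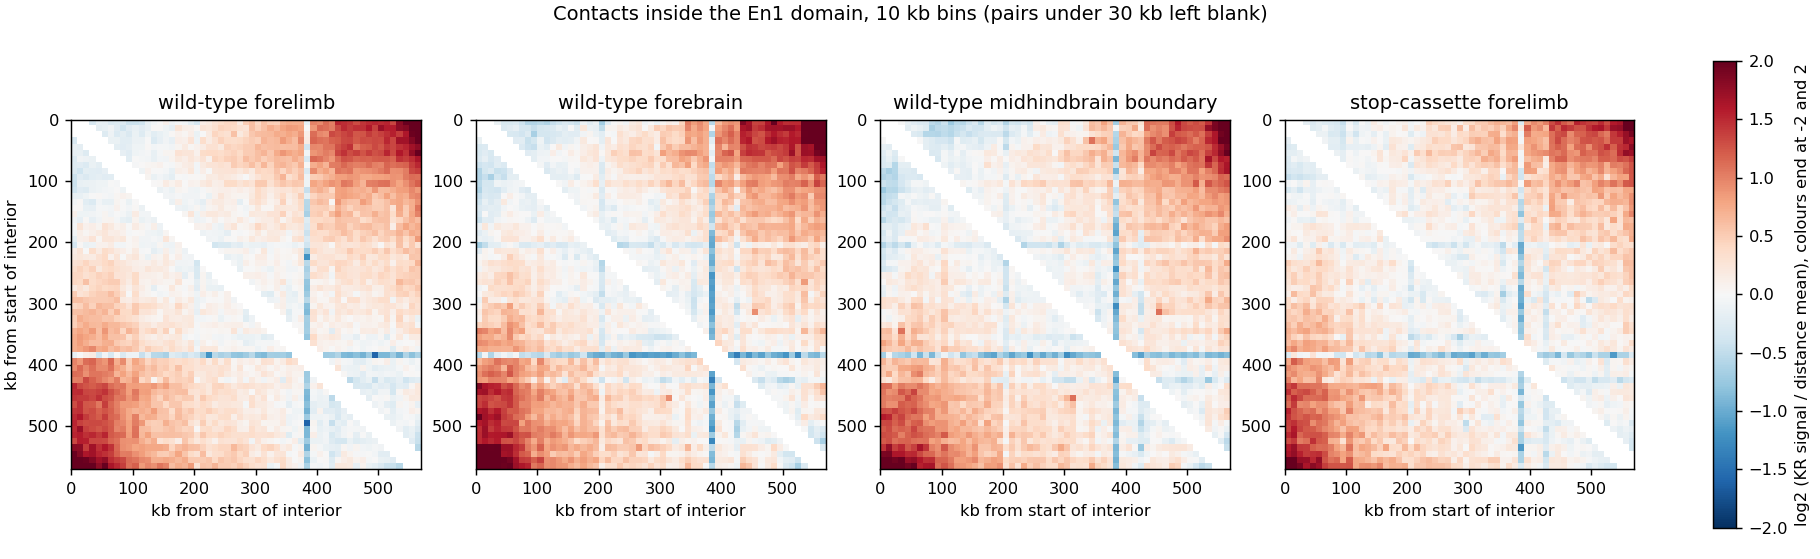
Observed over distance mean of every interior pair of 10 kb bins in the 4 merged maps, as log2 on a colour scale that ends at -2 and 2, with both axes in kb from the start of the interior and pairs under 30 kb apart left blank. The corner at the upper right reaches 8.31 to 11.7, and a pale or blue line at 380 kb marks a thinly covered bin in all 4 maps.

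The level fell off from the corner over the bins next to it, and the extent of the corner was not measured. For wild-type forelimb, the level with the last bin was 9.15, 6.12 and 4.35 in the first 3 interior bins. The level with the first bin was 9.15, 5.59 and 3.94 in the last 3, going inward. After averaging 3 by 3 bins, the highest value in all 4 maps joined chr1:122510001-122540000 to chr1:123050001-123080000, with 4.97 for wild-type forelimb, 6.67 for forebrain, 4.93 for midhindbrain boundary and 4.34 for stop-cassette forelimb. Away from it, the En1-side block met chr1:122990001-123020000 at 2.78, 3.09, 2.50 and 2.59, the second place in both forelimb maps. In the brain maps the place named there lay 10 kb nearer, at chr1:122980001-123010000, with 3.13 for forebrain and 2.56 for midhindbrain boundary. The third high place joined chr1:122570001-122600000 to chr1:123050001-123080000, at 2.59, 2.78, 2.74 and 2.28, and in midhindbrain boundary it ranked second. All the high places thus joined the En1 side to the far side. Pairs with a level of at least 2 numbered 148 for wild-type forelimb, 138 for forebrain, 115 for midhindbrain boundary and 101 for stop-cassette forelimb. Of these, 148, 137, 113 and 101 joined the En1-side 190 kb to the far-side 190 kb, and 89 pairs passed that level in all 4 maps.

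Split into an En1-side, a middle and a far-side segment of 190 kb each, the interior held no block of raised contact within a segment. The En1-side segment had a mean level with itself of 0.958 for wild-type forelimb, 0.918 for forebrain, 0.891 for midhindbrain boundary and 0.973 for stop-cassette forelimb. The middle segment had 1.01, 0.972, 0.969 and 0.979 with itself. The far-side segment had 0.892, 0.956, 0.950 and 0.934. Each segment by itself thus stayed near or below the regional average, and the raised level of the domain came from contacts between segments. Pairs within a segment are less than 190 kb apart, and at such distances the whole interior stayed near the average. For wild-type forelimb its mean was 0.961 at 30 to 100 kb and 1.07 at 110 to 200 kb. The split was therefore not separated from the rise with distance. The En1-side segment met the middle one at 1.25, 1.21, 1.13 and 1.21. The middle segment met the far-side one at 1.15, 1.18, 1.19 and 1.10. The En1-side and far-side segments met at 1.99 (counting SD 0.0071), 2.11 (0.0072), 1.87 (0.0069) and 1.80 (0.0078).

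Insulation inside the interior was shallow. A score was taken at each of 38 bin edges, comparing the mean KR signal of the 100 kb square that spans the edge with the average over all 38 edges (log2), and a minimum had to lie at least 0.1 below the highest scores on both sides. This gave 0 minima for wild-type forelimb, 2 for forebrain, 2 for midhindbrain boundary and 1 for stop-cassette forelimb. The edge at chr1:122720001, 210 kb into the interior, was a minimum in both brain maps, being 0.16 deep for forebrain and 0.15 for midhindbrain boundary. It was 0.093 deep for wild-type forelimb and 0.068 for stop-cassette forelimb. The edge at chr1:122800001, at 290 kb, was 0.14 deep for forebrain, 0.14 for midhindbrain boundary, 0.11 for stop-cassette forelimb and 0.094 for wild-type forelimb. Both edges were thus local lows of all 4 maps, and the threshold fell between values that lie close together. With a depth of 0.2 or a 150 kb square no minimum was found in any map. With a 50 kb square the edge at 210 kb was a minimum in all 4 maps, and the edge at 290 kb was one in stop-cassette forelimb and in neither brain map. On raw counts the edge at 210 kb was a minimum in no map, and the edge at 290 kb in all but wild-type forelimb. Which edges were minima thus depended on the setting.

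A further local low lay at chr1:122960001, at 450 kb, with the lowest scored value in wild-type forelimb. Its score there was -0.19 (counting SD 0.0083), against -0.088 for forebrain, -0.090 for midhindbrain boundary and -0.10 for stop-cassette forelimb. It lay under the depth threshold in every map with the 100 kb square, and with a 50 kb square it was a minimum in all 4 maps.

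**Figure D3:**
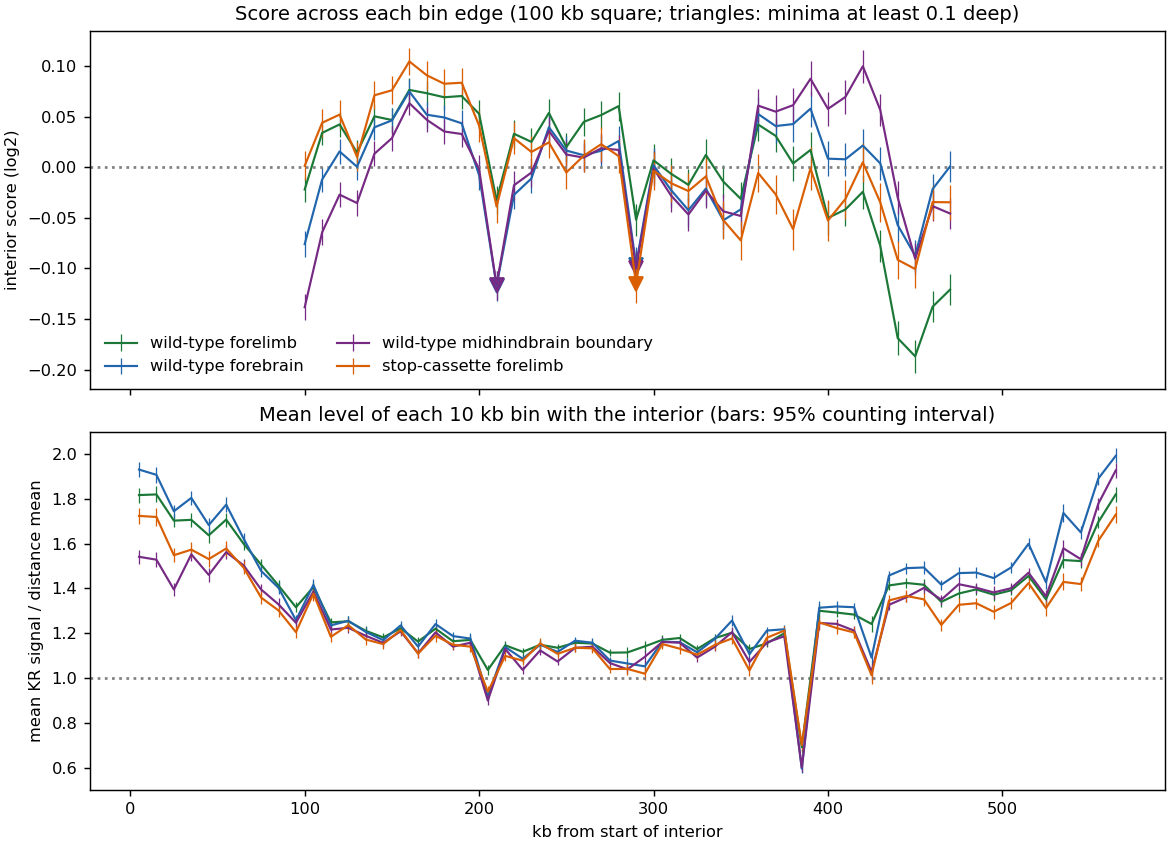
Upper panel: log2 score of the KR signal that spans each interior bin edge within 100 kb, in kb from the start of the interior, for the 4 merged maps, with triangles at minima at least 0.1 deep (the forebrain triangle at 210 kb lies under that of midhindbrain boundary). Lower panel: mean observed over distance mean of each bin with the rest of the interior; bars are 95% counting intervals. The bins at both ends stand highest and the bin at 380 kb lowest, at 0.596 to 0.701.

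The bins differed in how strongly they took part in interior contacts, and the ends led. The last interior bin, chr1:123070001-123080000, had the highest mean level in every map, at 1.82 for wild-type forelimb, 1.99 for forebrain, 1.93 for midhindbrain boundary and 1.73 for stop-cassette forelimb. The first bin, chr1:122510001-122520000, had 1.82, 1.93, 1.54 and 1.72, so that it stood lowest in midhindbrain boundary. The median interior bin had 1.25, 1.26, 1.22 and 1.21.

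The lowest bin was chr1:122890001-122900000, at 380 kb, with 0.692 for wild-type forelimb, 0.596 for forebrain, 0.601 for midhindbrain boundary and 0.701 for stop-cassette forelimb. It was also thinly covered, with 12815, 13267, 13188 and 9624 summed contacts, the rank of 11 from the bottom among the 420 bins of each map. Most of its signal fell under 30 kb, from 58.9% for wild-type forelimb to 66.8% for midhindbrain boundary, where the median interior bin had 28.3% to 33.7%. The other thin bin, chr1:122930001-122940000, at 420 kb, ranked between 10 and 16 from the bottom and had mean levels of 1.24, 1.09, 1.03 and 1.01. It lay under the median interior bin in every map and was the third lowest bin in midhindbrain boundary and stop-cassette forelimb. The part of coverage was not tested. The bin at 380 kb took part in all 15 of the pairs with a level under 0.6 for wild-type forelimb, all 32 for forebrain, 35 of 36 for midhindbrain boundary and all 18 for stop-cassette forelimb. The second lowest bin, chr1:122710001-122720000, had 1.04, 0.917, 0.8998 and 0.939. It borders the minimum at 210 kb, and its coverage rank was between 95 and 117. In forebrain the third lowest bin was chr1:122800001-122810000, at 1.05, which starts at the edge at 290 kb. Its coverage rank there was 28. The part of coverage in the minima was not tested.

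Among 3 by 3 averages the low places fell into 2 groups. One was the contact of the En1 end over 70 to 200 kb: chr1:122510001-122540000 with chr1:122600001-122630000 had 0.825 for wild-type forelimb, 0.726 for forebrain, 0.683 for midhindbrain boundary and 0.841 for stop-cassette forelimb. The brain maps were lowest there. With chr1:122580001-122610000 the same block had 0.821, 0.737, 0.709 and 0.799. With chr1:122710001-122740000, which holds the second lowest bin, it had 1.05, 0.9003, 0.791 and 0.988. That place was among the 3 lowest in midhindbrain boundary only. The other group contained the thin bin at 380 kb, such as chr1:122780001-122810000 with chr1:122870001-122900000, at 0.862, 0.782, 0.830 and 0.801.

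Stripes, single bins whose contacts along one side stood at least 0.2 (log2) above those of the bins 2 and 3 away, were few. There was 1 for wild-type forelimb, 3 for forebrain, 3 for midhindbrain boundary and 2 for stop-cassette forelimb. The stripe called in all 4 maps ran from chr1:122910001-122920000, at 400 kb, toward the far side, with a prominence of 0.24, 0.26, 0.31 and 0.23. Its mean level was 0.968, 1.05, 1.07 and 1.01, so it was not above the regional average by much in any map. The bins 2 away from it on either side are chr1:122890001-122900000 and chr1:122930001-122940000, the 2 most thinly covered bins of the interior. Measured against bins 3 to 5 away, it was called in none of the 4 maps. A stripe toward En1 from chr1:122940001-122950000, at 430 kb, was then called in 3 maps, all but midhindbrain boundary, and the bins 5 away from it again include the thin bin at 380 kb. The bin at 400 kb also carried a stripe toward En1 in forebrain (prominence 0.29) and midhindbrain boundary (0.26), and the prominence there was 0.19 for wild-type forelimb and 0.20 for stop-cassette forelimb. Other stripes were called in 1 map each, with prominences of 0.21. They lay at chr1:122950001-122960000 (forebrain toward the far side, stop-cassette forelimb toward En1) and chr1:122870001-122880000 (midhindbrain boundary toward the far side). Both of these bins also have a thinly covered bin 2 away, at 420 and 380 kb, and the part of thin coverage in the stripes was not tested.

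The stop-cassette comparison asks whether the insertion goes with another folding of the domain in forelimb. Interior contacts were slightly lower in the stop-cassette map, and the more so the farther apart the loci. The interior mean was 1.26 against 1.32, a log2 ratio of -0.071 (95% counting interval -0.079 to -0.064). The same ratio over the other 5 intervals of the region ran from -0.095 to 0.052, so the interior lay within their range. By distance, the log2 ratio was 0.0052 (-0.0052 to 0.016) at 30 to 100 kb, -0.12 (-0.14 to -0.097) at 310 to 400 kb and -0.18 (-0.23 to -0.13) at 510 to 560 kb. The far-side segment went the other way with itself, at 0.934 against 0.892, a log2 ratio of 0.066 (0.044 to 0.087). So did the En1-side segment with itself, at 0.973 against 0.958, a log2 ratio of 0.021 (0.0051 to 0.038). The corner of the first 5 with the last 5 bins had 6143 contacts against 8627 and a level of 3.32 against 3.77, a log2 ratio of -0.18 (-0.23 to -0.13).

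No single interior pair differed by 2-fold between the forelimb maps. The exact binomial test called 0 of 1485 interior pairs (adjusted p under 0.05 over all pairs tested, and at least 2-fold), where it called 0.0282% of all 35433 pairs of the map. At an unadjusted p under 0.05 it held 141 interior pairs, 9.49% against 9.45% of all pairs. Pairs elsewhere that were no shallower than the lower quartile of the interior (deep pairs) passed in 13.8% of cases. Without a minimum fold it called 1 interior pair, against 0.0762% of all pairs, and that pair was higher (0.0508% of all pairs were called higher and 0.0254% lower). The pair joined chr1:122680001-122690000 to chr1:122740001-122750000, with 409 contacts for the mutant and 431 for wild type and levels of 1.28 and 0.956. The log2 ratio was 0.42 (exact test, adjusted p = 0.048), and with the variance inflated to the spread over all pairs the adjusted p was 0.85. Of the 1485 pairs, 919 had a ratio below 0, with a median log2 ratio of -0.046 beside 0.015 over all pairs tested. The share of all pairs with a ratio below 0 was not counted. By the shares called, the interior was thus near the average of the map and below deep pairs elsewhere. The test with a 2-fold minimum named no place in it.

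The comparisons among wild-type tissues share maps with each other and with the stop-cassette comparison, so they are not independent. Midhindbrain boundary against forebrain is free of the CD1 tag, and both belong to 1 run of library numbers. The interior mean was 1.27 for midhindbrain boundary and 1.35 for forebrain, a log2 ratio of -0.086 (95% counting interval -0.093 to -0.079). This lay below the range of the other 5 intervals, -0.039 to -0.0069, which are shorter and hold fewer of the longest distances. The shortfall was concentrated on the En1 side. The first 5 bins met the middle segment at 1.13 against 1.29, a log2 ratio of -0.19 (-0.22 to -0.16). They met the far-side segment without its last 5 bins at 1.92 against 2.46, a log2 ratio of -0.36 (-0.39 to -0.33). The last 5 bins met the middle segment at 1.31 against 1.27, a log2 ratio of 0.038 (0.0072 to 0.070). The contacts of the En1 end with the middle were thus lower in midhindbrain boundary, and those of the far end were not. Without the first and last 5 bins, the interior ratio was -0.039 (-0.048 to -0.031).

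The exact binomial test with a 2-fold minimum called 0 of 1485 interior pairs between these brain maps, against 0.0113% of all pairs. At an unadjusted p under 0.05 there were 217, 14.6% of interior pairs against 7.21% of all pairs. Interior pairs are deeper than most, with a median of 556 contacts over both maps against 153, and deep pairs elsewhere passed in 10.4% of cases. Without a minimum fold 29 interior pairs were called, 3 higher and 26 lower in midhindbrain boundary, 1.95% against 0.224% of all pairs (0.0737% higher and 0.15% lower). Of the 26 lower pairs, 22 touched the first 5 bins, as did 260 of the 1485 interior pairs tested. With inflated variance and no minimum fold 13 were called, against 0.0935% of all pairs. The variance was inflated by the excess over all pairs, 1.31, while interior pairs alone had an excess of 2.27. No share of deep pairs elsewhere was taken for the adjusted calls. All 13 were lower in midhindbrain boundary and touched the first or last 5 bins, as did 495 of the 1485 interior pairs tested. The largest difference among the called pairs joined chr1:122510001-122520000 to chr1:123050001-123060000, with 328 contacts for midhindbrain boundary and 678 for forebrain, at levels of 3.67 and 6.52. Its log2 ratio was -0.83 (exact binomial test, adjusted p = 3.5e-14; with inflated variance, 6.8e-10). At chr1:122510001-122520000 with chr1:123040001-123050000 the contacts were 147 and 294 (log2 ratio -0.80, exact test with adjusted p = 3.6e-05). The first pair lies beside the corner, where forebrain stood above all other maps: wild-type forelimb had 3.94 and stop-cassette forelimb 3.12. At the second, wild-type forelimb had 3.51 and stop-cassette forelimb 2.99.

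The profile of the En1-side 30 kb, chr1:122510001-122540000, showed this along the whole interior. With chr1:122750001-122780000, at 240 kb, the level was 1.33 for wild-type forelimb, 1.13 for forebrain, 0.987 for midhindbrain boundary and 1.26 for stop-cassette forelimb. With chr1:122930001-122960000, at 420 kb, it was 2.49, 2.71, 1.75 and 2.23. Midhindbrain boundary was the lowest of the 4 maps in 16 of the 17 blocks of 30 kb, the exception being the corner, where stop-cassette forelimb was lowest. The profile of the last 30 kb, chr1:123050001-123080000, looked different: midhindbrain boundary was the highest map in 8 of 17 blocks and forebrain in 7, and stop-cassette forelimb was the lowest in 8 and wild-type forelimb in 7. These counts were made after the profiles were seen and describe 4 maps.

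**Figure D4:**
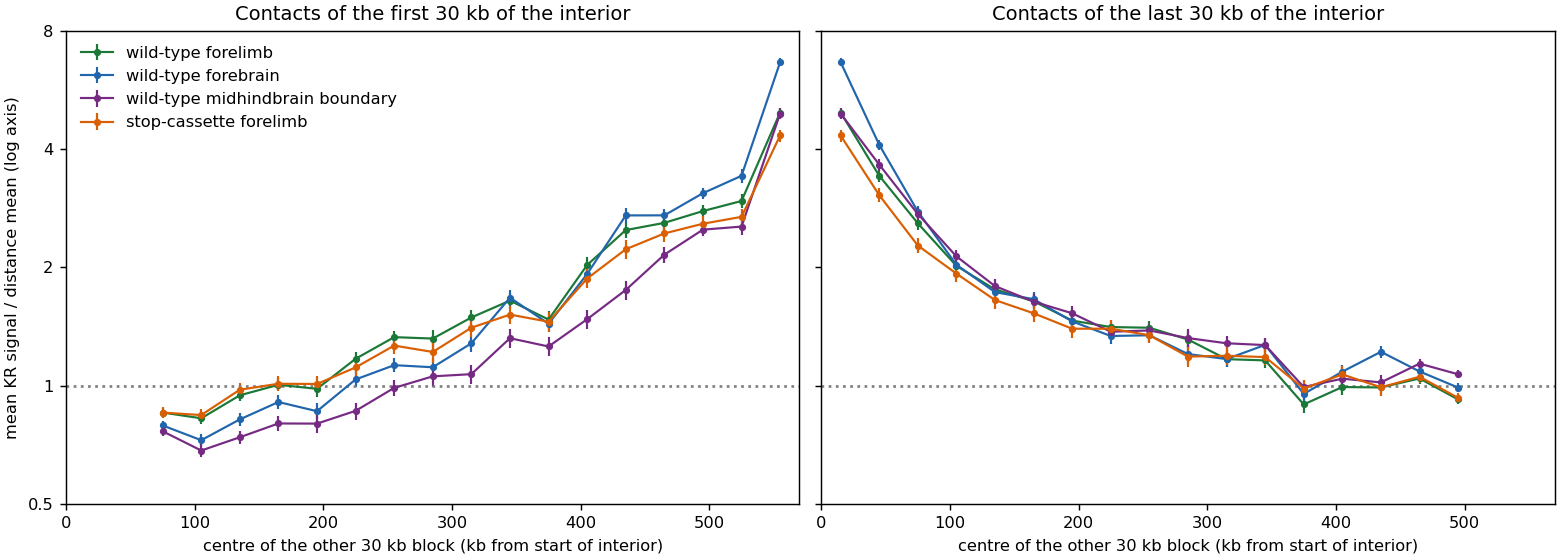
Mean observed over distance mean (log axis) of the first 30 kb (left) and the last 30 kb (right) of the interior with each other 30 kb block, placed by its centre in kb from the start of the interior, for the 4 merged maps, with 95% counting intervals as bars and a dotted line at 1. On the left, midhindbrain boundary runs below the other maps in 16 of 17 blocks; on the right forebrain stands apart at the corner, where it reaches 6.67, and in the block that starts at 420 kb, at 1.22 against 0.989 to 1.02 in the other maps.

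Wild-type forelimb differed from midhindbrain boundary along the same end, with forelimb higher. The interior mean was 1.32 against 1.27, a log2 ratio of 0.058 (95% counting interval 0.050 to 0.065), within the -0.063 to 0.070 of the other 5 intervals. The first 5 bins met the middle segment at 1.39 against 1.13, a log2 ratio of 0.30 (0.27 to 0.33). The far-side segment with itself was lower in forelimb, at 0.892 against 0.950, a log2 ratio of -0.091 (-0.11 to -0.071). The exact binomial test with a 2-fold minimum called 0 of 1485 interior pairs, against 0.0621% of all pairs, and 307 pairs had an unadjusted p under 0.05, 20.7% against 10.3% of all pairs and 14.4% of deep pairs elsewhere. Without a minimum fold 48 interior pairs were called, 35 higher and 13 lower in forelimb, against 0.681% of all pairs (0.22% higher and 0.46% lower). Of the 35 higher pairs, 29 touched the first 5 bins, as did 260 of the 1485 interior pairs tested.

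The largest of them joined chr1:122530001-122540000 to chr1:122930001-122940000, a thin bin, with 129 contacts for forelimb and 60 for midhindbrain boundary (log2 ratio 0.89, exact test with adjusted p = 0.017). The pair chr1:122520001-122530000 with chr1:122830001-122840000 had 206 and 107 contacts (log2 ratio 0.80, exact test with adjusted p = 0.0023). With inflated variance their adjusted p were 0.41 and 0.17, and none of the 3 interior pairs then called, against 0.0339% of all pairs, was higher in forelimb. Single pairs on the En1 side therefore did not hold under the wider error. Joined into 30 kb blocks, a step added after seeing the data, 6 of the 153 interior blocks were called with inflated variance, against 0.485% of all 3920 blocks. All 6 contained chr1:122510001-122540000 and were higher in forelimb, by log2 ratios of 0.34 to 0.49. Midhindbrain boundary against forebrain gave 10 such blocks, against 0.638% of all blocks. All 10 were lower in midhindbrain boundary and 7 contained the same first 30 kb. The strongest of them joined it to chr1:122930001-122960000, with 1596 against 2764 contacts and a log2 ratio of -0.64.

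Wild-type forelimb and forebrain had interior means that lay close together, over parts that went both ways. The interior mean was 1.32 against 1.35, a log2 ratio of -0.028 (95% counting interval -0.035 to -0.021), and on raw counts it was -0.0026. Without the first and last 5 bins the ratio was -0.0037 (-0.012 to 0.0046). The far-side segment with itself was lower in forelimb, at 0.892 against 0.956, a log2 ratio of -0.099 (-0.12 to -0.079). The En1-side and middle segments with themselves were higher, by log2 ratios of 0.062 and 0.052. The first 5 bins met the last 5 at 3.77 against 4.80, a log2 ratio of -0.35 (-0.39 to -0.31), and met the middle segment at 1.39 against 1.29, a log2 ratio of 0.11 (0.078 to 0.14). Forelimb was thus lower at the corner and higher in the contacts of the En1 end with the middle. The exact binomial test with a 2-fold minimum called 0 of 1485 interior pairs, against 0.0198% of all pairs, and 232 had an unadjusted p under 0.05, 15.6% against 8.97% of all pairs and 14.9% of deep pairs elsewhere. Without a minimum fold 26 were called, 5 higher and 21 lower in forelimb, against 0.381% of all pairs (0.121% higher and 0.26% lower).

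With inflated variance and no minimum fold 9 interior pairs were called, against 0.0706% of all pairs, all lower in forelimb. The pair chr1:122510001-122520000 with chr1:123050001-123060000 had 349 contacts for forelimb and 678 for forebrain (log2 ratio -0.73). Its adjusted p was 2.7e-11 by the exact binomial test and 8.6e-07 with inflated variance. In 30 kb blocks with inflated variance, 2 of 153 were called, against 0.179% of all blocks. The corner block held 4523 contacts for forelimb and 6771 for forebrain, a log2 ratio of -0.43. The other block joined chr1:122930001-122960000 to the last 30 kb, with 2904 against 3753 contacts and a log2 ratio of -0.32. Between the forelimb maps the same step called 0 of 153 blocks, against 0% of all blocks, and 37 of 153 with counting error alone, 24.2% against 27.4% of all blocks.

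**Figure D5:**
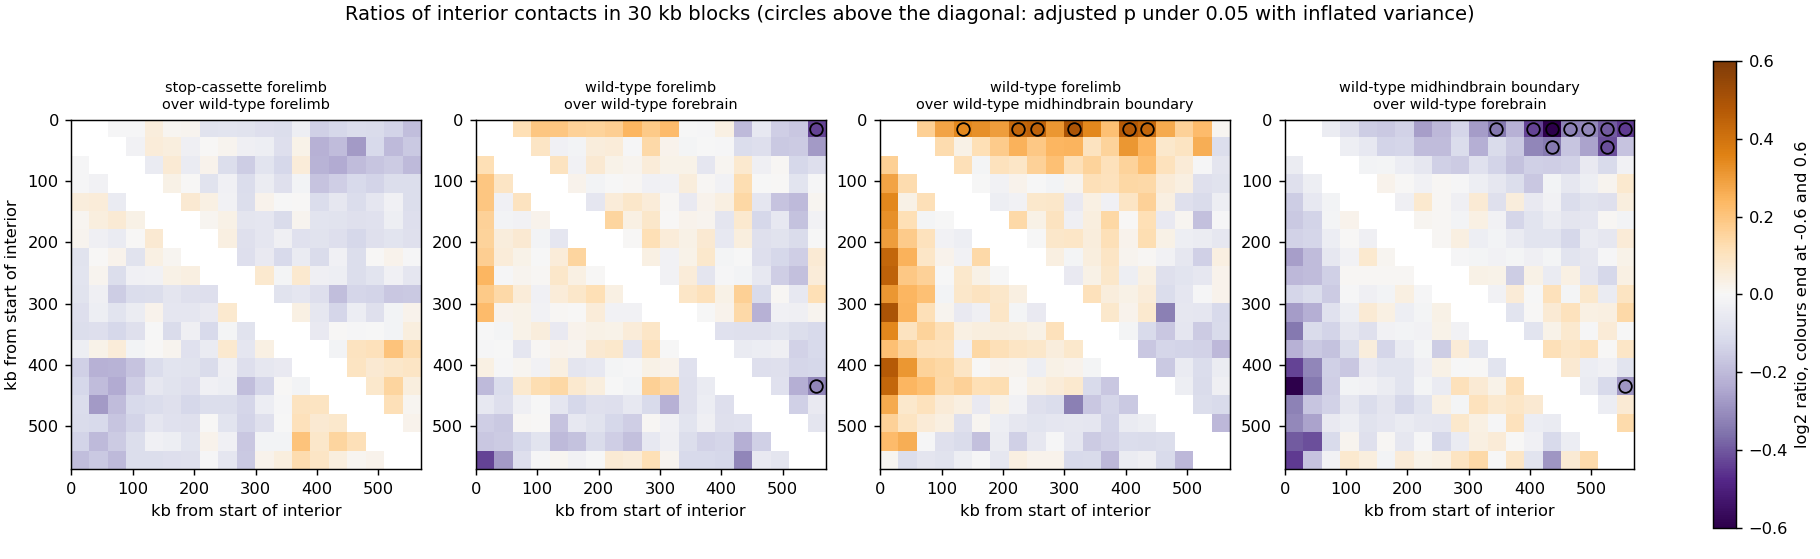
Log2 ratios of contacts between 30 kb blocks of the interior in the 4 comparisons, on a colour scale that ends at -0.6 and 0.6, with axes in kb from the start of the interior and blocks under 60 kb apart left blank. Circles mark blocks with an adjusted p under 0.05 with inflated variance (0, 2, 6 and 10 from left to right); those of forelimb over midhindbrain boundary all lie along the first 30 kb.

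A small group of contacts stood out in the brain maps, with a single pair at its peak. The pair joined chr1:122820001-122830000, at 310 kb, to chr1:122960001-122970000, at 450 kb. It had 306 contacts for wild-type forelimb, 418 for forebrain, 475 for midhindbrain boundary and 152 for stop-cassette forelimb. Its level was 1.22 (counting SD 0.070), 1.90 (0.093), 2.16 (0.099) and 1.01 (0.082), so it was raised in both brain maps and near the average in both forelimb maps. Neighbouring pairs were raised less. The pair of chr1:122810001-122820000 with chr1:122960001-122970000 had 1.11, 1.43, 1.58 and 1.197, and it was called lower in wild-type forelimb than in midhindbrain boundary too (adjusted p = 0.032 by the exact binomial test and 0.52 with inflated variance). The pair of chr1:122820001-122830000 with chr1:122970001-122980000 had 1.14, 1.21, 1.504 and 1.14. The 8 neighbours averaged 1.10, 1.18, 1.26 and 1.07. The 16 pairs of the ring 2 bins away from it averaged 1.12, 1.13, 1.18 and 1.08. The peak pair thus stood at 1.68 times its ring in forebrain and 1.83 times in midhindbrain boundary, against 1.09 and 0.929 in the forelimb maps. For the peak pair, the log2 ratio of wild-type forelimb to midhindbrain boundary was -0.82 (adjusted p = 1.0e-10 by the exact binomial test and 9.8e-06 with inflated variance). That of wild-type forelimb to forebrain was -0.63 (adjusted p = 1.4e-05 by the exact binomial test and 0.0036 with inflated variance). The difference was under 2-fold in both. The pair was named by the size of its difference, and its neighbours and ring were examined after its values were seen. The pair does not touch a thinly covered bin. Both forelimb maps having a low value is a description, since the stop-cassette map was not tested against the brain maps.

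Over the 1485 pairs, the pattern of log2 levels was much alike in all maps. Pearson's r, which here rests on pairs that share bins and distances, was 0.944 between wild-type forelimb and forebrain, 0.943 between the brain maps, 0.937 between the forelimb maps and 0.935 between forebrain and stop-cassette forelimb. It was 0.909 between wild-type forelimb and midhindbrain boundary and 0.903 between midhindbrain boundary and stop-cassette forelimb. Over the 990 pairs without the first and last 5 bins, r was lower throughout. It was then 0.917, 0.933, 0.892, 0.906, 0.891 and 0.884 in the same order, so the forelimb maps were less alike than forebrain and stop-cassette forelimb. At 410 to 560 kb, of 136 pairs, 89 were highest in forebrain, 77 were lowest in stop-cassette forelimb and 47 lowest in midhindbrain boundary.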

How the data were processed

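Per the map names in the labels, reads were processed with HiCUP at a mapping quality of 30 and the libraries of a group were merged. The submitters' processing notes name Bowtie2 2.3.4.1, Juicer 1.7.6 and build mm9, without their roles. In the deposited raw maps, values are counts of contacts between 10 kb bins. The deposited balanced maps hold a KR signal, which was checked to equal the raw count over the product of the factors of both bins. KR balancing gives all bins an equal summed signal, so a change shared by all contacts of a bin is removed.

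Computations used numpy 2.4.6, scipy 1.17.1 and matplotlib 3.10.9 under Python 3.11.15. Each KR signal was divided by the mean of its distance stratum over all 420 bins. Counting SDs were Poisson. Every pair of the map that spanned 30 kb to 1 Mb and held 20 counts or more in a comparison entered an exact binomial test, two-sided by doubling the smaller tail, with the expected share set by distance stratum and KR factors and p-values adjusted by Benjamini-Hochberg. Log2 ratios of pairs used a prior count of 0.5. Inflated variance scales the counting variance by its observed excess over all pairs (1.31 to 1.60, and 3.53 to 5.67 in 30 kb blocks), in a normal approximation. Over interior pairs of 10 kb bins alone the excess was 2.22 to 2.65 among wild-type tissues and 1.48 between the forelimb maps. The inflated variance is therefore smaller than the interior's own spread in the tissue comparisons. The code was tested on simulated data. Alternatives were a stricter or no threshold, raw counts, other squares, flanks, distances and bin sizes, and thin bins left out.

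Named positions were all minima, stripes shared by 3 maps or the strongest per map, the 3 highest and lowest 3 by 3 averages, up to 5 called pairs per direction, the segments and the end bins. Not every member of the longer lists is printed. The focal pair belongs to that rule, and pairs called without a minimum fold were used where none passed 2-fold. Members, lists and segments were chosen with earlier results of these data known. No sequence is printed.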

Additional observations from a re-analysis of the deposited data

How the results depend on the processing

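No paired analysis was possible because the libraries of a group were merged before the maps were deposited, and for the same reason no library could be left out. Results are given for stop-cassette over wild-type forelimb, wild-type forelimb over forebrain, wild-type forelimb over midhindbrain boundary, and midhindbrain boundary over forebrain, in that order. Of 76 results under an alternative, 30 stayed within the main 95% counting interval or, for counts, within 1.5 times the main count, while 46 moved further and 0 reversed. A count within that range does not mean the same positions: in forebrain the minima at 210 and 290 kb became 210, 340 and 450 kb with a 50 kb square, and none of its 3 stripes was among the 3 called with flanks 3 to 5 bins away. The causes were not tested. The count of called interior pairs was 0 in all 4 comparisons and became 1, 26, 48 and 29 without a minimum fold. Without KR factors it became 1 in every comparison but wild-type forelimb against forebrain, where it was 0. With inflated variance and no minimum fold, added after seeing the data, it was 0, 9, 3 and 13. In 30 kb blocks, also added after seeing the data, it was 37, 48, 65 and 41 with counting error and 0, 2, 6 and 10 with inflated variance.

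The log2 ratio of the interior level moved to -0.088, -0.037, 0.070 and -0.11 for pairs at least 100 kb apart. On raw counts it moved to -0.0026 for forelimb over forebrain and 0.088 for forelimb over midhindbrain boundary, and without the 2 thinly covered bins to -0.039 and 0.048. With the distance mean taken outside the interior it moved from -0.086 to -0.095 for midhindbrain boundary over forebrain. Minima numbered 3 for wild-type forelimb and 4 for stop-cassette forelimb with a 50 kb square, and 1 and 2 on raw counts. They numbered 0 for forebrain, midhindbrain boundary and stop-cassette forelimb with a 150 kb square or a depth of 0.2. Stripes at a prominence of 0.3 numbered 0 for wild-type forelimb, 0 for forebrain, 1 for midhindbrain boundary and 0 for stop-cassette forelimb. On raw counts, where coverage of single bins is not removed, they numbered 14 in each map. With flanks 3 to 5 bins away they numbered 0 for midhindbrain boundary and 1 for stop-cassette forelimb. The thinnest interior pair had 24 contacts, so counting error limits thin single pairs more than means over segments.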
